A study of Mus musculus with 4 samples.

Results

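The barcodes described here are droplets from the P14 mouse testis that carried Sertoli cell transcripts of the seminiferous tubules but in which few genes were detected. A droplet barcode was included when it had at least 1000 but fewer than 2000 detected genes, at least 5 of the 10 Sertoli genes Inha, Cst9, Cst12, Defb19, Defb36, Wfdc10, Tsx, Aard, Rhox8 and Amhr2 with a unique molecular identifier (UMI, the tag that marks 1 captured RNA molecule), at most 1 UMI of the germ cell genes Ddx4 and Dazl together, and under 20% of its UMIs from the mitochondrial genome. Barcodes with at least 2 UMIs of each of Wfdc18, Fabp3 and Tesc, genes of the Sertoli cells next to the rete testis, were left out. These values chose the barcodes, so levels of these genes are a description. The criteria were met by 2074 of 46001 barcodes (4.51%), which is 28.0% of the 7398 barcodes in that range of gene numbers, called the shallow range here. The libraries control 1, control 2, Sox17-cKO 1 and Sox17-cKO 2 gave 502, 467, 631 and 474 of them, and 4 values in a row below follow this order of libraries. For comparison, 3139 barcodes met the same criteria with 2000 or more genes and are called the deeper Sertoli barcodes, so that the shallow barcodes make up 39.8% of 5213.

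Sertoli cells are the somatic nurse cells of the seminiferous tubule. They enclose the germ cells, seal the tubule with tight junctions known as the blood-testis barrier, take up the remains of germ cells, and hand lactate to them as fuel. They also release hormones of the inhibin and anti-Müllerian hormone families together with large amounts of small secreted proteins, among them beta-defensins, cystatins and proteins with a WAP domain.

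The study asked how loss of the transcription factor gene Sox17, which is expressed in the rete testis epithelium, affects the cells around that epithelium. The piece of testis with the rete testis and the neighbouring tubules was dissociated from C57BL/6 pups, and each library held the pooled cells of 3 pups, with 5000 cells aimed at. Controls are recorded with the genotype SF1Cre, whereas the study's methods describe them as Sox17 flox/flox littermates, and the Sox17-cKO pups are SF1Cre:Sox17flox/flox. The Cre is driven by sequences of Nr5a1 (SF1), a gene that is active in Sertoli cells and other somatic cells of the gonad as well as in the rete testis. With 2 libraries per genotype, p-values measure the spread between pooled libraries, and the smallest exact permutation p is 0.333.

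The promoters of 3 of the 6 marker genes of these barcodes, Tsx, Wfdc10, Etd, 1700011M02Rik, Defb19 and Aard, were found in RefSeq for build GRCm38.p6 and are shown because these genes gave the barcodes their name. Each line gives the 250 bases before the annotated start, 5′ to 3′ on the + strand, and capitals mark matches to the searched motifs.
Tsx: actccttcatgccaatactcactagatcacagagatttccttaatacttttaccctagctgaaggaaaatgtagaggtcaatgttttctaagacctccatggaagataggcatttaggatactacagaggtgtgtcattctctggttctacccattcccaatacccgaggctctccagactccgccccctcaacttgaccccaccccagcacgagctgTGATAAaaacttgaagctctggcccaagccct
Wfdc10: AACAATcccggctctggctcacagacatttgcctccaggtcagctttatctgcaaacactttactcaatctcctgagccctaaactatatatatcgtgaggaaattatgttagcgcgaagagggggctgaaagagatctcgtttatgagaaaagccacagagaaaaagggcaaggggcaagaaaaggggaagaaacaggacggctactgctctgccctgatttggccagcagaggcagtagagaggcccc
Etd: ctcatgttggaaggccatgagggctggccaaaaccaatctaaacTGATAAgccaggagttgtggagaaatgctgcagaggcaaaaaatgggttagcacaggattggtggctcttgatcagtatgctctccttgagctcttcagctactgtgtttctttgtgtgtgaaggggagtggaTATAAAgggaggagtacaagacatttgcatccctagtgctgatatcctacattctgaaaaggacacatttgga

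The windows lie at chrX:103414217-103414466 for Tsx, chr2:164655796-164656045 for Wfdc10 and chrX:53434668-53434917 for Etd. Among the motifs searched on both strands were TGATAA for GATA factors, AACAAT for SOX factors, AAGGTCA for NR5A1 and TATAAA for the TATA box. TGATAA was found in Tsx, starting at position -32 from the annotated start, and in Etd at -206. Etd also held TATAAA at -73, and Wfdc10 held AACAAT at -250. Among 32851 promoter windows of this length, 7.94% held TGATAA, 9.42% AACAAT, 4.08% AAGGTCA and 12.4% TATAAA, so the matches are common letters and describe these windows only.

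The 6 marker genes were high in all 4 libraries, although Defb19, Wfdc10, Tsx and Aard were also used to choose the barcodes. They summed to 14501, 15477, 14432 and 13401 CPM, against 465, 223, 724 and 202 CPM in barcodes of the shallow range with at most 2 of the 10 Sertoli genes and fewer than 5 germ cell UMIs, called the other shallow barcodes here. Levels are given as CPM, the summed UMIs of a gene scaled to the usual CPM total over all UMIs of the class in that library. Defb19, which encodes a beta-defensin, stood at 5985, 3889, 5517 and 3959 CPM, and Aard at 5280.1, 6211, 5074 and 4413 CPM. Wfdc10, which encodes a WAP domain protein, was at 1365, 2833, 1316 and 3092 CPM. Both second libraries exceeded both first ones for Wfdc10, so here the replicate number and not the genotype separated the libraries. The markers that the criteria did not use were Etd, at 1004, 1083, 797 and 721 CPM, and 1700011M02Rik, at 621, 926, 930.03 and 722 CPM. Tsx, an X-linked gene, ranged more widely, at 245, 535, 799 and 495 CPM, lowest in control 1 and highest in Sox17-cKO 1.

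Most of the other genes of the criteria were also high. The cystatin genes Cst9 and Cst12, whose family inhibits cysteine proteases, were at 3205, 3884, 4173 and 4387 CPM and 3645, 3956, 3187 and 3118 CPM. Defb36 was at 1298, 919, 995 and 806 CPM and the X-linked homeobox gene Rhox8 at 1007, 861, 1069 and 811 CPM. In CPM both Sox17-cKO libraries lay above both controls for Cst9 and below both for Cst12, and neither gene passed the genotype test given further on. Of all genes tested there, 22.6% lay above and 5.04% below in this way on CPM. After the TMM scaling of that test the genotypes overlapped for Cst9 but not for Cst12. Inha, the inhibin alpha subunit, was at 547, 961, 493 and 1415 CPM, and Amhr2, the receptor for anti-Müllerian hormone, at 391, 555, 466 and 549 CPM. All 10 genes were detected in 504 barcodes and exactly 5 in 122, while 190 further barcodes that met the other limits had exactly 4 and fell outside.

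Sertoli genes that the criteria did not use were present as well. Transcripts of Sox9, the transcription factor that directs Sertoli fate, were at 241, 182, 161 and 253 CPM, and those of Wt1, a further Sertoli transcription factor, at 150.3, 100.2, 112 and 150.3 CPM. Clu, which encodes the secreted chaperone clusterin, was at 1958, 1012, 1640.1 and 1763 CPM, and Ctsl, the protease cathepsin L, at 1927, 1251, 1761 and 2141 CPM. The 20 Sertoli markers outside the criteria, of which all were detected, summed to 7879, 7504, 7305 and 8590.1 CPM, against 1759, 1485, 1642 and 1524 CPM in the other shallow barcodes. The number of detected Sertoli genes separates these groups by choice, so the gap is a description. Fshr, the receptor for follicle-stimulating hormone, was near 0, with 10, 14, 9 and 7 UMIs in all.

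**Figure D1:**
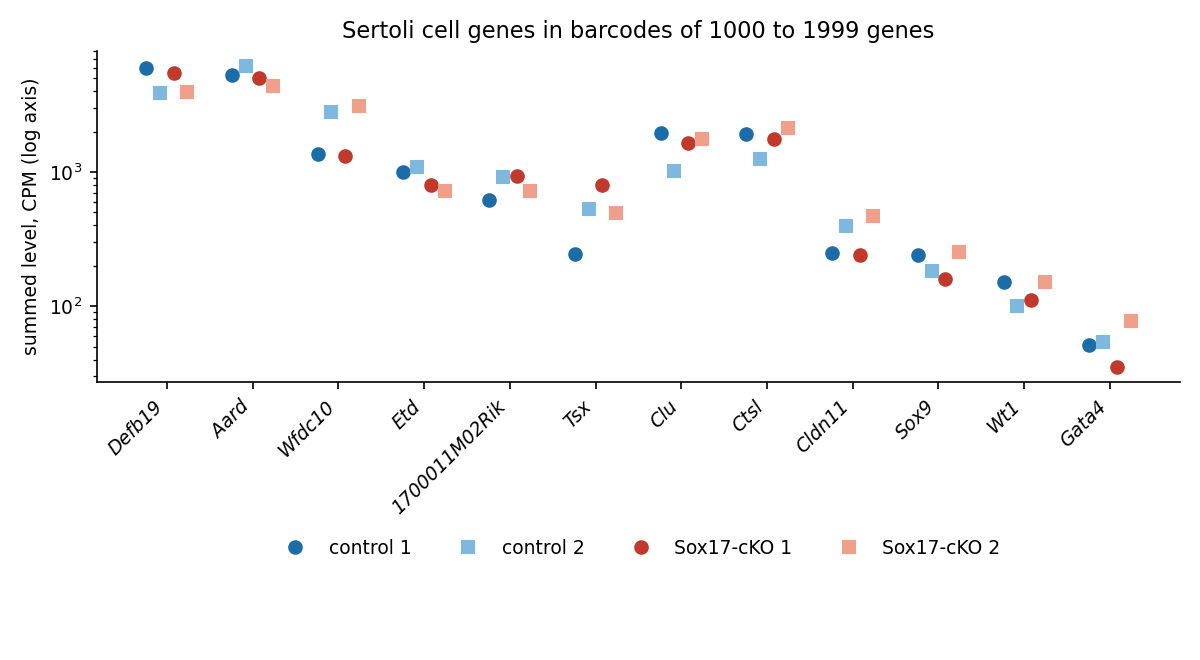
Summed level (CPM, log axis) of 12 Sertoli cell genes in the shallow Sertoli barcodes. Each point is 1 library, circles for replicate 1 and squares for replicate 2, blue for control and red for Sox17-cKO, and for Wfdc10 both squares lie above both circles.

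Sertoli transcripts were also found in barcodes of other cells, and those of Defb19 more often in both first libraries than in both second ones. Defb19 had a UMI in 99.2, 99.1, 99.0 and 97.9% of the shallow Sertoli barcodes. It also had one in 82.8, 34.9, 87.9 and 32.9% of germ cell barcodes (at least 5 UMIs of Ddx4 and Dazl), which held a median of 13278, 16228, 13293 and 14981 UMIs, and in 41.9, 14.4, 55.5 and 13.9% of the other shallow barcodes, with a median of 3431, 3723, 2941 and 3758 UMIs. The summed level of the 10 Sertoli genes was 22968, 24604, 23089 and 23045 CPM in the shallow Sertoli barcodes and 4624, 1127, 4515 and 1221 CPM in germ cell barcodes. Inha had a UMI in 40.2, 31.6, 38.5 and 37.0% of germ cell barcodes, also more often in both first libraries, but in 2.81, 10.6, 3.47 and 11.8% of the other shallow barcodes, less often in both first libraries. Sox9 had a UMI in 42.6, 38.3, 30.4 and 44.5% of shallow and 84.8, 74.8, 56.7 and 84.7% of deeper Sertoli barcodes, against 31.0, 10.5, 25.4 and 19.5% of germ cell barcodes.

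A minority of the barcodes went against the label. Over 13 markers of stromal and peritubular myoid cells (among them Col1a1, Col1a2, Col3a1 and Acta2), 111 barcodes (5.35%) had 20 or more UMIs, a limit chosen after the values were seen. The libraries held 55, 7, 40 and 9 of these. Their median was 9, 12, 9 and 7 UMIs of the 10 Sertoli genes, against 67, 66, 57 and 57 in the other 1963 barcodes. They are called stromal-rich here and are given no cell type. Among the deeper Sertoli barcodes, 748 (23.8%) passed the same limit. It is a fixed number of UMIs, easier to pass where a barcode holds more of them, so both shares depend on depth. The 8 stromal markers summed to 3923, 535, 2969 and 1302 CPM over all shallow Sertoli barcodes and to 91.98, 345, 121 and 332 CPM without the stromal-rich ones. Values without them are given for some of the comparisons below.

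Markers of most other cell types were low. The 7 rete testis markers, Pax8 and Cdh1 among them, summed to 45.5, 17.9, 51.5 and 21.8 CPM, the 5 Leydig cell markers to 15.9, 26.2, 14.6 and 36.6 CPM, the 6 macrophage markers to 15.2, 19.4, 42.6 and 22.6 CPM, the 5 endothelial markers to 23.4, 2.24, 21.6 and 7.79 CPM and the 4 erythrocyte markers to 0.689, 2.24, 3.81 and 3.12 CPM. The 6 markers of the Sertoli cells next to the rete testis, 3 of which the criteria limited, summed to 415, 379.9, 241 and 450.2 CPM. Single barcodes carried most UMIs of some immune genes. The mast cell protease genes Cma1, Cpa3, Tpsb2 and Mcpt4 had 95, 33, 43 and 41 UMIs in control 1, all in 1 barcode for each gene. In Sox17-cKO 1, 80 of 95 UMIs of Cd74, 68 of 70 of Gzmc and 49 of 50 of Ccl5 came from 1 barcode for each gene. In control 2, 32 of 34 UMIs of Ccl7 came from 1 barcode. No barcode sequence of the shallow Sertoli class was shared between libraries, while 190 sequences were shared over all barcodes.

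The shallow barcodes lay at the lower end of the gene numbers, without a gap at 2000 but with a second rise in counts further up. Median detected genes were 1339, 1325, 1276 and 1368.5, and 1404 barcodes (67.7%) had fewer than 1500. At the upper limit, 52 barcodes lay within 50 genes below 2000 and 67 of the deeper Sertoli class within 50 above, with median UMIs of 4543, 4583, 4752 and 4655 just inside and 4679, 4665, 4608 and 4472 just outside. Median UMIs over the whole class were 2669, 2652, 2245 and 2538, against 7520.5, 13690, 8400 and 9616 in the deeper one. The class held 1450342, 1337371, 1573066 and 1283802 UMIs in all. The mitochondrial share of UMIs had medians of 9.20%, 9.19%, 6.64% and 5.37%, against 12.1%, 9.52%, 8.23% and 5.59% in the deeper class.

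**Figure D2:**
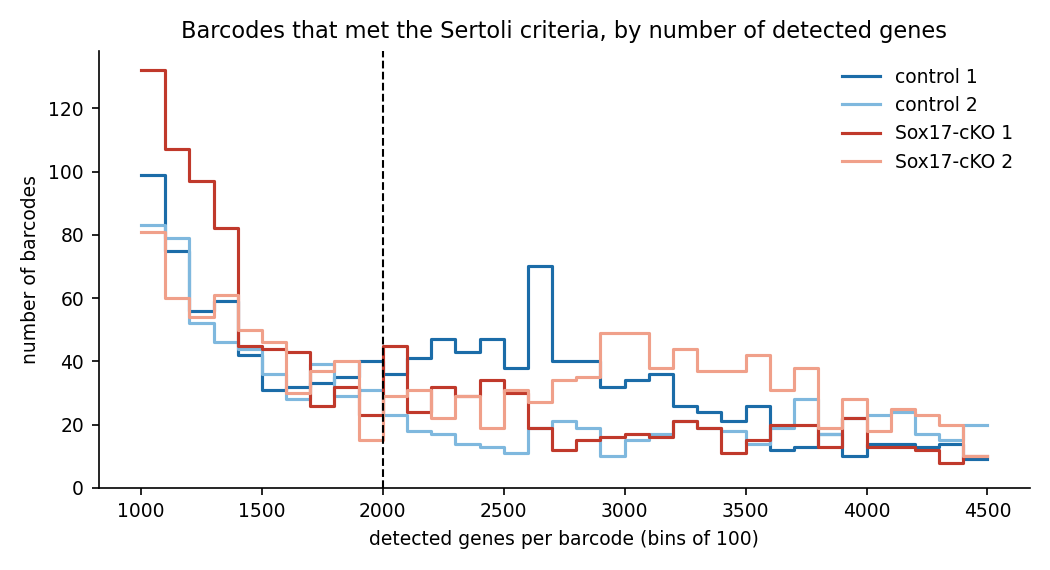
Number of barcodes that met the Sertoli criteria (vertical axis) by detected genes in bins of 100 (horizontal axis), with 1 line per library. The dashed line marks 2000 genes. The counts run across it without a gap in all 4 libraries, but they fall from the lowest bin and rise again further right.

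Sox17-cKO 1 held the largest share of shallow barcodes and Sox17-cKO 2 the smallest. The share of Sertoli barcodes with fewer than 2000 genes was 38.1% (exact Clopper-Pearson 95% interval 35.5 to 40.8) and 38.8% (36.0 to 41.6) in the controls and 52.5% (49.6 to 55.4) and 31.9% (29.5 to 34.3) in the Sox17-cKO libraries. The intervals cover counting error only. The mean was 38.4% ± 0.472 (SD, n = 2) in controls and 42.2% ± 14.6 (SD, n = 2) in Sox17-cKO, a difference of 3.75 percentage points that was within the spread of the Sox17-cKO libraries (exact permutation test over libraries, two-sided, p = 1). Without Sox17-cKO 1 the difference was -6.57 points, and without Sox17-cKO 2 it was 14.1 points, so 1 library decided its direction. The share depends on depth, and mean UMIs over all barcodes of a library were 7721, 11419, 7337 and 8409, lowest in Sox17-cKO 1. After libraries were thinned to that lowest mean before the criteria were applied, the shares were 37.0%, 33.7%, 52.5% and 32.6%. Without stromal-rich barcodes the shares were 38.8%, 47.5%, 61.8% and 36.4%, a difference of 5.89 points (exact permutation test, p = 1). The stromal limit removes deeper barcodes more easily, so these shares depend on it.

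Shallow and deeper Sertoli barcodes differed in which Sertoli functions their transcripts represented. Because the gene limit separates the classes, the following ratios describe them and carry no test. Of 3516 genes with a mean of at least 50 CPM over both classes, 35.0% were lower and 31.8% higher in the shallow class in 4 of 4 libraries, and the median log2 ratio of all these genes was -0.10, 0.00, 0.04 and -0.04. Without stromal-rich barcodes, 1419 genes (40.4%, of which 1180 were also lower before) were lower and 1180 (33.6%, 1023 of them higher before) higher. Genes of small secreted proteins were among the higher ones, but most of them chose the barcodes. At least 5 of the 10 Sertoli genes must be detected in any barcode, which can ask for a higher level per UMI where UMIs are few. How far this limit set the ratios of these genes was not tested, and their ratios are a description. Of the 10 genes, 8 were higher and 2, Inha and Amhr2, lower in 4 of 4 libraries. All 6 marker genes were higher in 4 of 4 libraries, with Tsx at log2 ratios of 0.86, 1.54, 1.14 and 0.89. Outside the criteria, Etd was at 0.63, 1.43, 0.96 and 0.86 and 1700011M02Rik at 0.49, 1.38, 0.88 and 0.83. The markers were chosen with earlier results of these data known, so their ratios are a description. Without stromal-rich barcodes Tsx was at 0.87, 1.01, 0.76 and 0.58. Of 15 measured Sertoli markers outside the criteria, Etd and 1700011M02Rik included, 8 were lower and 4 higher in 4 of 4 libraries. Their median log2 ratios were -0.60, -0.14, -0.55 and -0.29. Of 7 measured defensin, cystatin and WAP genes, 6 were higher, of which Cst9, Cst12, Defb19, Defb36 and Wfdc10 belong to the criteria and Defb45 does not, with Defb36 at 0.82, 1.34, 0.89 and 0.92 and Defb45 at 0.87, 1.15, 0.88 and 1.08, and 5 of them without stromal-rich barcodes. Cst3, a cystatin gene that many cell types express, was the lower one at -0.09, -0.76, -0.61 and -0.49.

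Genes of the respiratory chain were also higher in the shallow class, while the ratios of ribosomal protein genes varied with the library and with the barcodes compared. Of 20 nuclear genes of the respiratory chain and ATP synthase, 18 were higher in 4 of 4 libraries and none was lower, with or without stromal-rich barcodes, and the list's median log2 ratios were 0.52, 0.39, 0.51 and 0.29. Cox5a, a subunit of cytochrome c oxidase, stood at 1149, 1206, 1155 and 1079 CPM against 815, 733, 774 and 744 CPM in the deeper class. Of 77 cytosolic ribosomal protein genes, 41 were higher and none lower, and 74 were higher without stromal-rich barcodes. Their median log2 ratios were 0.54, 0.03, 0.16 and 0.04, and against deeper barcodes of 2000 to 4500 genes 0.56, -0.08, 0.07 and -0.01, so both second libraries then lay below 0. Without stromal-rich barcodes the medians were 0.59, 0.41, 0.53 and 0.28, above 0 in 4 of 4 libraries. The 13 mitochondrially encoded genes did not follow, as 4 of them were lower and none higher in 4 of 4 libraries, and 9 were lower without stromal-rich barcodes. Among 14 genes of glycolysis and lactate supply, 6 were higher and 4 lower, not far from the 31.8% and 35.0% of all genes. Ldhb, a lactate dehydrogenase subunit, was at 2011, 3142, 2121 and 2603 CPM against 1551, 1663, 1475 and 1799 CPM, whereas Slc16a1, a lactate transporter, was at 51.7, 48.6, 38.8 and 77.9 CPM against 76.9, 83.8, 77.3 and 102 CPM.

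Genes of the barrier, of transport and of uptake were lower in the shallow class. Of 13 measured genes of the blood-testis barrier and adhesion, 11 were lower and none higher in 4 of 4 libraries (12 lower without stromal-rich barcodes). The connexin gene Gja1 had log2 ratios of -1.28, -1.39, -1.38 and -0.93 and the cadherin gene Cdh2 of -1.07, -1.44, -0.87 and -0.94. Cldn11, the main tight junction claudin of Sertoli cells, was at 250.3, 395, 240.3 and 473 CPM against 439, 649, 396 and 696 CPM. All 10 measured genes of transport proteins and proteases were lower, with Clu at log2 ratios of -1.22, -1.34, -0.96 and -0.97 and Psap, the prosaposin gene, at -1.05, -1.79, -1.06 and -0.98. Of 10 genes of phagocytosis and lipid handling, 8 were lower, among them Axl, a receptor for the engulfment of dying cells, at -1.07, -0.98, -0.98 and -0.54, and Scarb1, a lipoprotein receptor, at -1.33, -1.03, -0.99 and -0.90. Fabp5, a carrier of fatty acids, was the only one of the 10 that was higher, at 0.57, 1.13, 0.58 and 0.47.

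Hormone pathways and transcription factors did not share 1 direction. All 6 measured genes of the inhibin, activin and anti-Müllerian hormone pathway were lower in 4 of 4 libraries, with Inhbb, the inhibin beta B subunit, at log2 ratios of -1.18, -0.91, -0.89 and -0.93. Inha and Amhr2 are among the 6 and belong to the criteria. Of 10 gonadal transcription factors, 6 were lower, with Sox9 at -0.93, -0.87, -0.66 and -0.87 and Wt1 at -1.17, -1.63, -0.95 and -0.98. Dmrt1 and Nr0b1 were higher in 4 of 4 libraries, and neither was without stromal-rich barcodes. Rhox5, a homeobox gene that responds to androgen, was higher at 0.60, 1.32, 0.88 and 0.82. It belongs to the FSH and androgen response list, of which 4 of 8 measured genes were higher and 2 lower, with median log2 ratios of 0.19, 0.56, 0.33 and 0.24. Rhox8 is among the 4 higher ones and belongs to the criteria, so the count and the medians are in part set by the choice of barcodes. The immediate early genes were lower by more. Of 18 immediate early and heat shock genes, 14 were lower and 2 higher, with Fos at -0.95, -3.21, -2.21 and -2.05 and Egr1 at -1.004, -3.45, -2.46 and -2.41. Both were furthest from 0 in control 2 and nearest to it in control 1. The list's median log2 ratios were -0.48, -2.32, -1.48 and -1.93. Without stromal-rich barcodes they were -1.31, -2.15, -1.67 and -1.65.

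**Figure D3:**
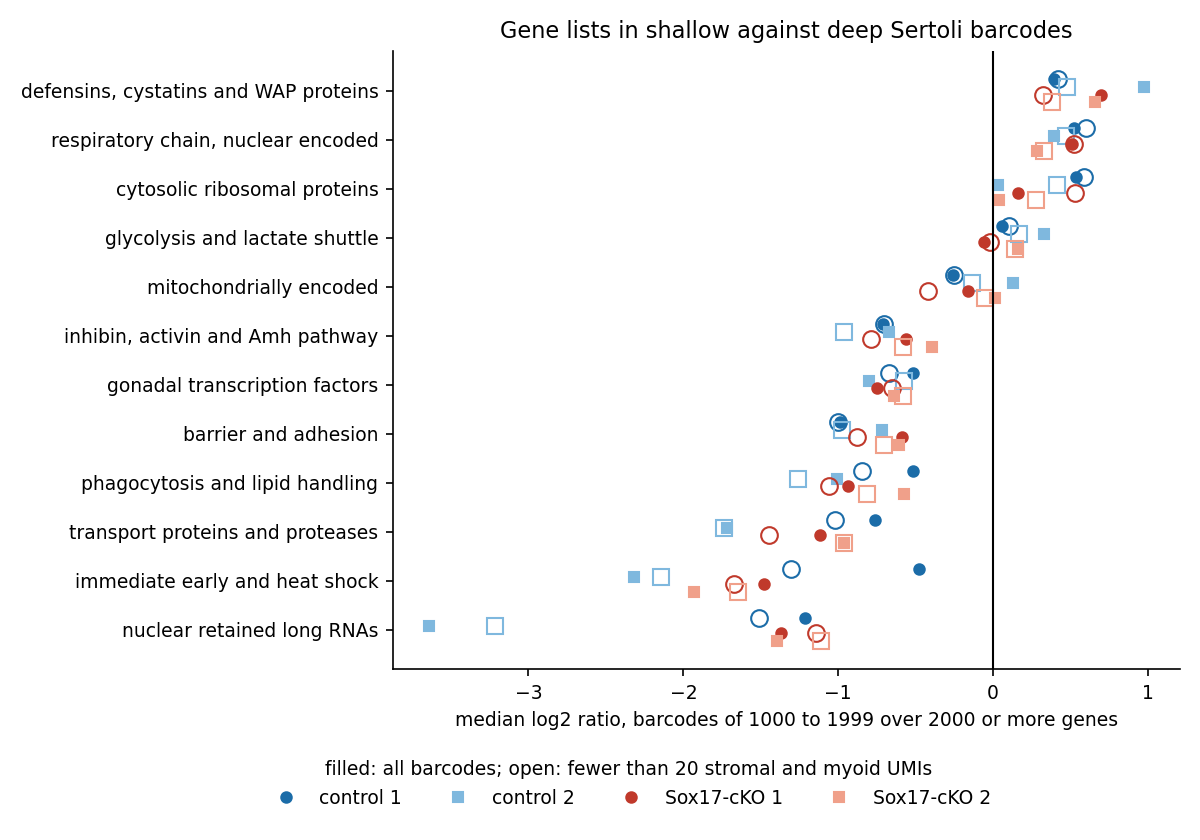
Median log2 ratio of shallow (under 2000 genes) over deeper (2000 or more genes) Sertoli barcodes (horizontal axis) for 12 gene lists (vertical axis). Circles are replicate 1 and squares replicate 2, blue control and red Sox17-cKO, filled for all barcodes and open without stromal-rich ones, and the defensin, cystatin and WAP list and the respiratory chain list lie right of 0 and the barrier list left of 0 in 4 of 4 libraries.

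The 10 higher and 10 lower genes whose ratio stayed furthest from 0 in the library nearest to it showed what else separated the classes. Among the higher ones were 6 genes of meiosis and germ cells outside the criteria (Sycp3, Tex101, Sycp1, Rpl39l, Tex15 and Smc1b), together with Dazl, Defb45, Tsx and AY036118. AY036118, a noncoding transcript, was at 3998, 2339.7, 4758 and 2703 CPM against 1509, 626, 1228 and 799.6 CPM. The lower ones included Enpp2, which encodes the enzyme autotaxin, at 44.1, 28.4, 47.04 and 77.1 CPM against 168, 224, 157 and 218 CPM, and Tgfb2, a growth factor gene, at 20.7, 5.98, 12.1 and 12.5 CPM against 152, 555, 52.3 and 258 CPM. Against deeper barcodes of 2000 to 4500 genes only, the Tgfb2 ratios were -1.01, -3.42, -1.88 and -1.72. The study reports Tgfb2 in the rete testis epithelium. A Sox17 UMI was found in 3.06, 10.7, 1.75 and 3.45% of the deeper barcodes. The part of rete testis transcripts in the Tgfb2 ratio was not tested. The remaining lower genes were 1500015O10Rik, Neat1, Atf3, Zbtb20, Crip2, Glg1, Klf6 and Lrrc8d.

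Some germ cell transcripts were found in the shallow Sertoli barcodes. The criteria allow these barcodes at most 1 UMI of Ddx4 and Dazl, while the other shallow barcodes may hold up to 4, so a lower share of barcodes with germ cell transcripts can be set by the choice and is given as a description. Sycp3, a gene of the meiotic chromosome axis, had a UMI in 40.8, 12.2, 46.3 and 30.4% of shallow Sertoli barcodes, 35.8, 17.5, 46.8 and 31.3% of other shallow barcodes and 94.8, 96.9, 94.6 and 96.2% of germ cell barcodes. Sycp1 and Tex101, further germ cell genes, were detected less often in shallow Sertoli than in other shallow barcodes in 4 of 4 libraries, Sycp1 in 31.1, 10.5, 39.9 and 26.6% against 41.7, 20.7, 59.5 and 34.1% and Tex101 in 21.9, 5.57, 35.7 and 12.2% against 29.7, 11.01, 46.2 and 18.0%. The 8 germ cell markers other than Ddx4, Dazl, Kit and Uchl1 summed to 551, 136, 982 and 375 CPM in shallow and 198, 54.2, 217 and 103 CPM in deeper Sertoli barcodes, and to 699, 371, 1389 and 517 CPM in the other shallow barcodes. The limit of 1 UMI of Ddx4 and Dazl allows a higher germ cell share per UMI in a barcode with few UMIs, and how far this limit set the ratio was not tested.

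Malat1, a long noncoding RNA that stays in the nucleus, had no UMI in many shallow barcodes. Its level was 5390.4, 622, 4828 and 3234 CPM against 10604, 7248, 16912 and 7308 CPM in the deeper class, with control 2 far below the other libraries. Stromal-rich barcodes held a median of 67, 32, 81 and 29 Malat1 UMIs, against 2, 1, 2 and 2 in the rest, and without them the levels were 3019, 387, 2744 and 3037 CPM against 10008, 5395, 12039.7 and 6765 CPM. No Malat1 UMI was found in 493 of 2074 barcodes, a share of 21.1% (95% interval 17.6 to 24.95), 38.3% (33.9 to 42.9), 16.0% (13.2 to 19.1) and 22.6% (18.9 to 26.6). Other shallow barcodes lacked it rarely, since 97.2, 96.9, 97.1 and 97.1% of them had a Malat1 UMI. Neat1, a nuclear RNA of paraspeckles, was also lower, at 33.8, 4.49, 15.3 and 34.3 CPM against 94.1, 142, 43.6 and 107 CPM.

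After thinning to the same number of UMIs, shallow barcodes still lacked a Malat1 UMI more often than deeper ones. Each barcode with at least 2000 UMIs was thinned to 2000, which left out 93, 89, 217 and 105 shallow barcodes and none of the deeper ones. Of the thinned shallow barcodes, 27.6% (23.3 to 32.2), 51.9% (46.7 to 57.0), 22.9% (19.0 to 27.3) and 33.9% (29.1 to 39.0) had no Malat1 UMI. The deeper ones lacked it in 2.94% (1.89 to 4.34), 14.1% (11.7 to 16.8), 5.08% (3.43 to 7.21) and 9.07% (7.38 to 11.01), so that the intervals of both classes did not overlap in any library. Without stromal-rich barcodes the shares were 31.9%, 52.8%, 25.1% and 34.7% in shallow and 3.41%, 19.1%, 7.92% and 10.5% in deeper barcodes, and the intervals again did not overlap. Thinned shallow barcodes also held fewer genes, with medians of 1081, 1100.5, 1156 and 1131 against 1176.5, 1178, 1179 and 1228. Both classes were defined by gene number, so these differences are a description, and the part of depth in them was not tested. The intervals cover counting error over barcodes only.

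**Figure D4:**
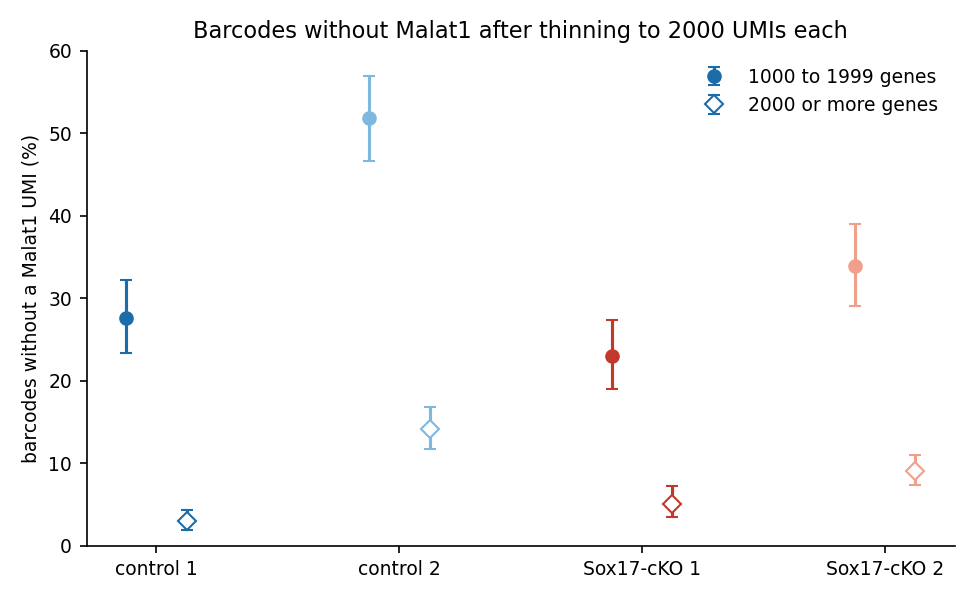
Share of Sertoli barcodes without a Malat1 UMI (%, vertical axis) after thinning each barcode to 2000 UMIs, by library (horizontal axis). Filled circles are shallow (under 2000 genes) and open diamonds deeper (2000 or more genes) barcodes, bars are exact 95% intervals, and the intervals of both classes are apart in each library.

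Within the shallow class, barcodes with and without Malat1 differed in marker, respiratory chain and immediate early transcripts. Leaving out stromal-rich barcodes, 106, 179, 101 and 107 had no Malat1 UMI and 89, 7, 91 and 78 had 5 or more, and the following ratios are without over with. The 6 marker genes summed to 18668, 16263, 17218 and 15119.7 CPM without Malat1 and 12265, 10901, 8650.2 and 8474 CPM with 5 or more, the higher sum being without Malat1 in 4 of 4 libraries. Of these markers 4 belong to the criteria, and barcodes without Malat1 also held fewer genes over all shallow barcodes, with medians of 1232.5, 1308, 1272 and 1339 against 1707.5, 1567, 1395 and 1486, so how far the criteria set this difference was not tested. Etd, outside the criteria but also a marker that gave the class its name, had log2 ratios of 0.66, 0.53, 1.21 and 0.80. Barcodes without Malat1 had more respiratory chain transcripts, with median log2 ratios of 0.61, 0.47, 0.48 and 0.78, and fewer immediate early and heat shock transcripts, with -1.59, -0.44, -0.76 and -0.48. The 20 Sertoli markers outside the criteria summed to 8426, 7698, 8254 and 8548 CPM without Malat1 and 11203, 8385, 6429 and 10346 CPM with 5 or more, a difference that changed sign between libraries. In control 2 these values rest on 7 barcodes with 5 or more Malat1 UMIs. The mitochondrially encoded genes had median log2 ratios of -0.34, -0.21, -0.54 and -0.17.

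With the main settings, the genotype comparison found no gene past the threshold in the shallow Sertoli barcodes. The targeted gene Sox17 had 7, 1, 0 and 1 UMIs, which is 4.83, 0.748, 0 and 0.779 CPM, and 4 of the 7 UMIs in control 1 came from 1 barcode. A Sox17 UMI was found in 0.797, 0.214, 0 and 0.211% of the barcodes, against 0.365, 1.33, 0.108 and 0.598% of germ cell barcodes, and with so few UMIs these barcodes cannot check the deletion. Nr5a1, whose sequences drive the Cre, had 59, 91, 73 and 160 UMIs, which is 40.7, 68.04, 46.4 and 125 CPM, highest in Sox17-cKO 2. With UMIs summed per library, the edgeR quasi-likelihood test called 0 of 9125 genes (0% of those tested) at an adjusted p of 0.05, while 135 had an unadjusted p under 0.05, 88 of them higher and 47 lower in Sox17-cKO. DESeq2 also called 0 genes, with 59 at an unadjusted p under 0.05. With the replicate number as a block, edgeR called 4 genes, with 568 at an unadjusted p under 0.05. Without stromal-rich barcodes edgeR called 0 genes, with 190 at an unadjusted p under 0.05.

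Single libraries changed this count. Such a fit has 1 library in an arm, which is assumed to vary like the libraries of the other genotype. Leaving out control 1 gave 1 called gene (Ccl7), leaving out control 2 gave 6, leaving out Sox17-cKO 1 gave 15 and leaving out Sox17-cKO 2 gave 8. Cma1, Tpsb2, Gzmc and Cd74, whose UMIs came largely from 1 barcode, were among the genes called. The 15 genes called without Sox17-cKO 1 included Cox8c, Ldhc and Hist1h1a, genes of germ cells, and Cox8c was at 71.7, 7.48, 136 and 0.779 CPM, higher in both first libraries. Without the filter on low counts 13 genes were called, Cma1 and Gzmc among them. After TMM scaling, 14.5% of the tested genes had both Sox17-cKO libraries above both controls and 10.4% had both below. On plain CPM these shares were 22.6% and 5.04%. Scaling to library totals moved the median log2 fold change of all genes from 0.01 to 0.16.

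The genes named next had the smallest unadjusted p among those whose genotypes did not overlap, and all missed the threshold with all 4 libraries and the main settings, with unadjusted p from 0.00153 to 0.0177 and an adjusted p of 1 in edgeR. Of the 5 higher ones, AC149090.1 was at 15.2, 6.73, 45.8 and 56.9 CPM, with a log2 fold change of 2.07 ± 0.45 (SE), unadjusted p = 0.00153. Within replicate numbers its log2 differences were 1.53 and 2.90. Its adjusted p over the alternatives ran from 0.0277 to 1, and it passed without the low-count filter (0.0409), without Sox17-cKO 1 (0.0277) and with the replicate number as a block (0.0351). Ccne2, which encodes the cell cycle protein cyclin E2, was at 5.52, 4.49, 27.97 and 22.6 CPM, with a log2 fold change of 2.17 ± 0.48 (SE), unadjusted p = 0.00164. It lies at chr4:11191351-11204779 on the + strand (GENCODE vM21, GRCm38). Both genes were spread over barcodes, with at most 7 UMIs in any of them. Cep295, a centrosome gene, was at 23.4, 12.7, 62.9 and 46.7 CPM, and its log2 fold change was 1.45 ± 0.41 (SE), unadjusted p = 0.00657.

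For the other higher genes, 1 barcode held most UMIs of a library. Cd74, the invariant chain of MHC class II in immune cells, was at 1.38, 4.49, 60.4 and 12.5 CPM, with log2 differences of 4.69 and 1.30 within replicate numbers. In Sox17-cKO 2 its 16 UMIs lay in 15 barcodes, unlike in Sox17-cKO 1. Its edgeR adjusted p over the alternatives ran from 8.95e-07 to 1, and it passed without the low-count filter, with the replicate number as a block (0.0351), and without control 2 or Sox17-cKO 2. Rgs1, a regulator of G protein signalling, was at 2.76, 0.748, 10.8 and 17.9 CPM, and 22 of its 23 UMIs in Sox17-cKO 2 came from 1 barcode.

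Of the 5 lower genes, Wnt6, which encodes a secreted WNT ligand, had the most UMIs. It lies at chr1:74771892-74785322 on the + strand (GENCODE vM21, GRCm38) and stood at 96.5, 88.2, 37.5 and 46.7 CPM, with a log2 fold change of -1.28 ± 0.35 (SE), unadjusted p = 0.00555. Within replicate numbers the log2 differences were -1.34 and -0.90, and a Wnt6 UMI was present in 107, 94, 53 and 56 barcodes. Without stromal-rich barcodes Wnt6 was at 109.9, 90.2, 35.1 and 47.3 CPM, with a log2 fold change of -1.44 ± 0.359 and an unadjusted p of 0.00223 in edgeR, short of the threshold at an adjusted p of 1. Its adjusted p over all alternatives ran from 0.132 to 1. The histone gene Hist1h4h was at 36.5, 27.7, 19.1 and 10.1 CPM, and its log2 fold change was -1.27 ± 0.43 (SE), unadjusted p = 0.0177. C1qc, a complement gene of macrophages, was at 7.58, 8.97, 0.636 and 1.56 CPM, where 9 of 11 UMIs in control 1 came from 1 barcode.

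The muscle genes Casq2 and Tnnt2 were low without the stromal-rich barcodes. Casq2, which encodes a calsequestrin, was at 32.4, 14.95, 9.54 and 7.01 CPM, and Tnnt2, which encodes a troponin T, at 20.7, 11.2, 5.72 and 4.67 CPM, both lower in Sox17-cKO without overlap. Without stromal-rich barcodes they were at 0.814, 5.35, 0 and 1.60 CPM and 0.814, 0, 4.21 and 4.01 CPM, too few for the test. The number of stromal-rich barcodes, 55 and 7 in controls and 40 and 9 in Sox17-cKO, separated the replicate numbers more than the genotypes.

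**Figure D5:**
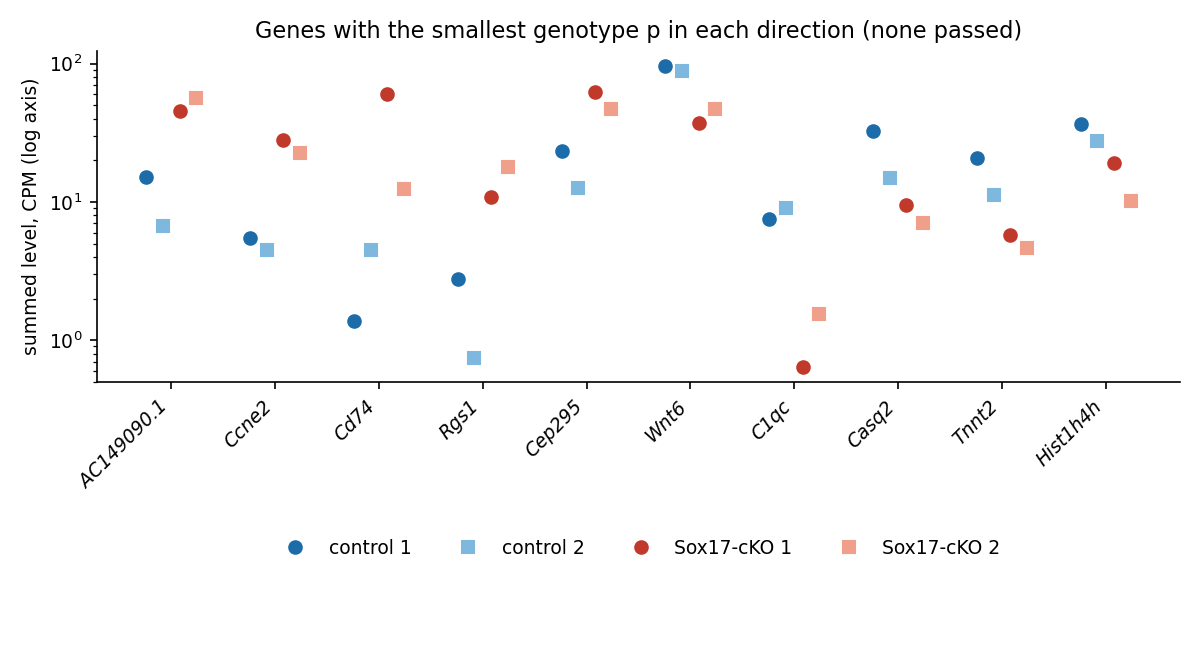
Summed level (CPM, log axis) in shallow Sertoli barcodes of the 5 genes higher and the 5 lower in Sox17-cKO with the smallest unadjusted p. Each point is 1 library, circles for replicate 1 and squares for replicate 2, blue for control and red for Sox17-cKO, and none of the genes passed the threshold.

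Gene lists of Sertoli function gave 0 called genes in each list, and their medians are read beside the median of 0.01 over all 9125 genes and their counts without overlap beside the 14.5% higher and 10.4% lower of all genes. The 6 marker genes had a median log2 fold change of -0.14, with 0 higher and 2 lower without overlap after TMM scaling. Among 15 genes of the barrier and adhesion the median was 0.08, with 1 gene higher and 1 lower without overlap, and none had an unadjusted p under 0.05. Medians were -0.07 for 11 gonadal transcription factors, 0.02 for 11 genes of the inhibin, activin and anti-Müllerian hormone pathway and -0.06 for 13 genes of phagocytosis and lipid handling. Of 12 genes of retinoid handling, Cyp26b1, which encodes an enzyme that degrades retinoic acid, had an unadjusted p of 0.0213 in edgeR, at 63.4, 29.9, 19.7 and 24.1 CPM. Its adjusted p was 1.

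Some lists lay further from the median of all genes, still without a called gene, and the same shares of 14.5% and 10.4% hold beside their counts. These counts are after TMM scaling. On CPM without TMM, 22.6% of all genes were higher and 5.04% lower without overlap, and the counts of lower genes fell to 2 for the immediate early and heat shock list, 6 for the mitochondrially encoded, 4 for the ribosomal and 3 for the respiratory chain list. The 20 immediate early and heat shock genes had a median of -0.67, and 6 were lower without overlap and 0 higher. The 4 genes with an unadjusted p under 0.05 were Btg2, Hspa1a, Hspa1b and Hspb1, and Btg2 was at 518, 195, 198 and 129 CPM, with control 2 and Sox17-cKO 1 nearly equal. Within replicate numbers Fos had log2 differences of -1.03 and 0.38 and Egr1 of -1.35 and 0.64, so these genes were lower in the first pair and higher in the second. Without stromal-rich barcodes the list's median was -0.33. The 5 peritubular myoid markers, all below 0 and none past the test, had a median of -0.65, and their part in this was not tested. The 13 mitochondrially encoded genes had a median of -0.38, with 7 lower and 0 higher, and the 77 ribosomal protein genes a median of -0.35, with 11 lower and 0 higher, a share near that of all genes. The 20 nuclear genes of the respiratory chain and ATP synthase had a median of -0.27, with 9 lower and 0 higher, and a median of -0.12 with library totals in place of TMM. Leaving the mitochondrially encoded and ribosomal lists out of the counts also gave 0 called genes, and with library totals in place of TMM their medians were -0.23 and -0.20. The 16 cell cycle genes had a median of 0.25, with 4 higher and 0 lower, and 7 higher on CPM without TMM. Among them were Mki67, a gene of dividing cells, at 16.5, 11.2, 36.9 and 34.3 CPM (edgeR unadjusted p = 0.0148), and Cdkn1a, a cell cycle inhibitor, at 14.5, 17.9, 32.4 and 36.6 CPM (unadjusted p = 0.0421). The 11 germ cell markers tested had a median of 0.74, with 3 higher (Dazl, Kit and Zbtb16) and 0 lower. Dazl and Ddx4 are capped by the criteria. The sum of all 12 listed was 1120.4, 880.1, 1749 and 1307 CPM. It was highest in Sox17-cKO 1, where Sycp3 was also detected in the largest share of the other shallow barcodes. Without Ddx4, Dazl, Kit and Uchl1 the sum was 551, 136, 982 and 375 CPM, and the genotypes overlapped. Without Sox17-cKO 1 the cell cycle median was 0.00, and without Sox17-cKO 2 it was 0.55.

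Whether the genotype acted differently in shallow and deeper Sertoli barcodes was tested as an interaction with the library as a block. Of 12607 genes, 0 (0% of those tested) passed in edgeR, 222 had an unadjusted p under 0.05, and DESeq2 also called 0, with 71 under that p. In the deeper class alone, 0 of 13953 genes passed, with 114 at an unadjusted p under 0.05. Leaving out control 1 gave 252 called genes and leaving out control 2 gave 328, led by Malat1, Col1a2 and Col3a1 and by Col1a2, Col3a1 and Col1a1. Without Sox17-cKO 1 or without Sox17-cKO 2 the count was 0. Malat1 and the summed stromal markers differed between libraries as given above, and their part in these calls was not tested. The 5 genes of smallest p with all libraries were Cd74, Ccl2, H2-Aa, Ccl7 and Tnnt2, each with an adjusted p of 1 in edgeR. The genotype changes of Cd74 in both classes differed by 3.63 ± 0.55 (SE) on the log2 scale, and most of its UMIs in shallow barcodes of Sox17-cKO 1 came from 1 barcode.

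Without stromal-rich barcodes, 6 genes passed in the interaction. Kcnq1ot1, an imprinted long noncoding RNA of the nucleus, was at 22.8, 17.6, 81.4 and 89.8 CPM in shallow and 115, 83.1, 134 and 100.1 CPM in deeper barcodes. Its genotype change was larger in the shallow class, where the genotypes did not overlap, by 1.74 ± 0.304 (SE) on the log2 scale (edgeR adjusted p = 0.0109). Mdk, which encodes the growth factor midkine, was at 8.14, 12.2, 16.1 and 32.1 CPM and 34.2, 56.2, 9.75 and 25.8 CPM, a difference of 2.48 ± 0.382 (adjusted p = 0.00252, edgeR). With all barcodes in the test, Kcnq1ot1 had a difference of 1.36 with an unadjusted p of 0.00518 and an adjusted p of 1 in edgeR, and Mdk a difference of 0.24 with an adjusted p of 1. Over the alternatives the adjusted p ran from 0.000964 to 1 for Kcnq1ot1 and from 0.000108 to 1 for Mdk. The other genes were Cd74, Ccl7, Ccl2 and H2-Ab1, of which Cd74, Ccl7 and Ccl2 had most UMIs of 1 library in 1 barcode, for Ccl2 18 of 19 in control 2. The spread of H2-Ab1, Kcnq1ot1 and Mdk over barcodes was not counted. H2-Ab1 was at 1.63, 1.53, 36.5 and 0 CPM in the shallow class, high in Sox17-cKO 1 only.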

How the data were processed

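The authors captured cells with a 10x Genomics 3′ kit (version v3 per the labels, v3.1 per the methods) and counted UMIs with Cell Ranger 6.0.2 (control 1, Sox17-cKO 1) or 6.1.2 (control 2, Sox17-cKO 2), per the file headers. The submitters' processing notes name STAR and builds mm10 and GRCm38. The deposited counts are whole UMI counts per gene and barcode, not normalized, for 13364, 9388, 12262 and 10987 barcodes, which held 103187062, 107203219, 89969877 and 92386762 UMIs. Pooled matrices of the series were not used.

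Barcodes were chosen by the criteria in the report, and the members and lists were chosen with earlier results of these data known. No doublet caller was run. Of the barcodes of the shallow range, 3301 failed the Sertoli gene limit, 1335 the germ cell limit, 666 the mitochondrial limit and 22 the limit on cells next to the rete testis, each counted among those that passed the limits named before it. The study's much stricter mitochondrial limit was not applied. UMIs were summed per library and tested with edgeR 4.0.16 in R 4.3.3 (quasi-likelihood test, two-sided, with TMM factors, the filterByExpr limit on low counts and a Benjamini-Hochberg adjusted p of 0.05 as the threshold), after tests on simulated data. The SE given with an edgeR log2 fold change was derived from the test, as its absolute value over the square root of the F statistic. DESeq2 1.42.0 was an alternative. Cells are not replicates, and the library was the unit. CPM levels use library sums of the class, and ratios between classes add 1 CPM. Intervals are exact Clopper-Pearson at 95% and cover counting error only. Sums, shares and figures were made with pandas 2.3.3, SciPy 1.17.1, matplotlib 3.10.9 and NumPy 2.4.6 under Python 3.11.15. GENCODE vM21 held 99.6% of 31053 gene identifiers.

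Genes named in the genotype comparison were up to 10 in each direction past the threshold and, where fewer than 5 passed, those of smallest unadjusted p that did not overlap, to 5 in each direction, and in the interaction the 5 of smallest p. In the ratios they were the 10 highest and 10 lowest by the library nearest 0. Genes of single barcodes, and Kcnq1ot1 and Mdk, were named after their values were seen, as was the limit of 20 stromal and myoid UMIs. Other alternatives were a 10% mitochondrial limit, at least 6 of the Sertoli genes, no germ cell UMI, no low-count filter, library totals without TMM, no mitochondrial or ribosomal genes, at least 1500 genes, thinning of barcodes or of libraries, each library left out, the replicate number as a block, and an upper limit of 4500 genes for the deeper class, the last added after the data were seen.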

Additional observations from a re-analysis of the deposited data

Results flagged for a closer look

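Tnnt2 drew a closer look because its genotype change took opposite signs in the shallow and the deeper Sertoli barcodes. In shallow barcodes it was at 20.7, 11.2, 5.72 and 4.67 CPM, and the log2 ratio of the genotype means with 1 CPM added, Sox17-cKO over control, was -1.45, with a fitted log2 fold change of -1.74 in edgeR. In deeper barcodes it was at 24.5, 26.3, 55.9 and 26.8 CPM, with each Sox17-cKO library above each control. The test of this difference gave -2.42 ± 0.512 (SE) on the log2 scale in edgeR, with an unadjusted p of 0.00117 and an adjusted p of 1, so it did not pass. Without stromal-rich barcodes Tnnt2 was at 0.814, 0, 4.21 and 4.01 CPM and 1.76, 1.76, 3.90 and 3.25 CPM in the shallow and deeper classes, and the difference took the other sign, 2.19, with an adjusted p of 0.912.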

How the results depend on the processing

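The genotype count of 0 called genes was also 0 in 9 alternatives, and became 13 without the low-count filter, 4 with the replicate number as a block and 1 to 15 when 1 library was left out. The 4 genes called with the replicate block were Gm10076, Gsta2, Cd74 and AC149090.1. Deviations of same-numbered libraries from their genotype means correlated at 0.49 over 9125 genes. With 2 libraries per genotype both pairs give the same value by construction, so they are not separate observations. Same-numbered libraries also share a Cell Ranger version, while the labels do not pair them otherwise. The interaction count of 0 became 17 without the low-count filter, 6 without stromal-rich barcodes and 0 to 328 with 1 library left out, and was 0 in the 5 others run for it, which were DESeq2, the 10% mitochondrial limit, at least 6 Sertoli genes, no germ cell UMI and deeper barcodes of 2000 to 4500 genes. The difference in the share of shallow barcodes, 3.75 points, was -2.69 at the 10% mitochondrial limit and ranged from -6.57 to 14.1 with 1 library left out. The class numbered 1369 barcodes at that limit and 1330 with no germ cell UMI, against 2074. Of the results for named genes, 163 kept their side of the threshold, 23 passed it only in an alternative, and Tnnt2 reversed to 2.19 without stromal-rich barcodes. Each genotype has 2 pooled libraries, so small changes cannot be resolved, and medians of 2245 to 2669 UMIs per barcode leave genes of low level undetected in most barcodes. The causes of these changes were not tested.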

Other observations

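Among genes of the cytoskeleton, of 11 measured 4 were higher and 4 lower in 4 of 4 libraries, near the 31.8% higher and 35.0% lower of all 3516 genes. In the shallow Sertoli barcodes, Tubb3, a tubulin gene, was at 513, 1128, 628 and 1132 CPM against 422, 591, 455 and 747 CPM in the deeper class, and Dynll1, a dynein light chain gene, at 1191, 1489, 1209.7 and 1448 CPM against 838, 1092, 838 and 1194 CPM. Ezr, which encodes the membrane linker ezrin, was at 25.5, 19.4, 31.8 and 23.4 CPM against 47.9, 122, 55.2 and 104 CPM. Eppin, a protease inhibitor gene that androgen regulates, was at 196, 305, 383 and 298 CPM against 150.1, 174, 253 and 247 CPM.

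Several abundant genes separated the libraries by replicate number. Gapdh was at 822, 2249.9, 917 and 2344 CPM, Aldoa at 578, 1416, 514 and 1255 CPM and Inha at 547, 961, 493 and 1415 CPM, higher in both second libraries. Over 9125 genes, log2 CPM correlated at 0.957 between control 1 and Sox17-cKO 1 and at 0.946 between control 2 and Sox17-cKO 2, against 0.904 to 0.909 for the other pairs, a description across genes of libraries that share a Cell Ranger version within each pair.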
